A study of Mus musculus with 4 samples.

Results

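Messenger RNA of 8 genes of cyclic AMP signalling was followed in mouse bone marrow-derived macrophages, resting or stimulated with bacterial lipopolysaccharide (LPS), from wildtype and Cdk5r1 knockout mice. The genes are the receptor genes Vipr1, Gpr146, Ptger2 and Ptger4, the adenylyl cyclase gene Adcy7 and the phosphodiesterase genes Pde3b, Pde4b and Pde4d. They were taken with every array probe whose accession belongs to their symbols, which gave 13 of the 39429 probes of the array, for 8 of its 20886 genes with a symbol. Because Vipr1, Gpr146 and their pathway partners were chosen with their response to LPS known, that response is described below without a test. Knockout against wildtype was tested, although its ratios come from the same channels as that response. The genes were chosen with earlier results of these data known, and the p-values of that test carry this limit.

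Cyclic AMP is made from ATP by adenylyl cyclases, which receptors coupled to the G protein Gs switch on, and it is broken down by phosphodiesterases. In macrophages cyclic AMP acts through protein kinase A and Epac, and it is known to restrain the release of inflammatory cytokines such as TNF and to raise IL-10. Vipr1 encodes the VPAC1 receptor of vasoactive intestinal peptide, Ptger2 and Ptger4 encode the EP2 and EP4 receptors of prostaglandin E2, and Gpr146 encodes an orphan receptor.

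Bone marrow cells of male mice, 6 weeks of age, had been cultured for 7 days with GM-CSF at 25 ng/ml. All mice are labelled with the strain B6.129S4-Cdk5r1tm1Lht/J, and the wildtype and the CDK5R1 knockout differ in this gene, which encodes p35, an activating partner of CDK5. The LPS arrays were made from cells kept for 6 h with E. coli LPS at 100 ng/ml, and 10 µg of total RNA was labelled per sample. The treatment text of the basal arrays names the same LPS stimulation, and their group was taken from their titles and descriptions, which call them basal. On each of the 4 arrays, 2 basal and 2 LPS, wildtype RNA carried Cy3 and knockout RNA carried Cy5. The dye assignment was never swapped, so in a knockout to wildtype ratio genotype and a dye effect of the probe cannot be told apart. Within a channel, or in the difference between conditions, a constant dye effect cancels. The labels call the replicates biological but name no animals, so p-values may measure only the spread between these samples.

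Median spot intensities of the arrays lay between 76.0 and 97.5 in Cy3 and between 116 and 145.5 in Cy5, and no probe spot was saturated. All 8 macrophage marker genes on the array were well above background in every group. By limma 2 of them at rest and 3 under LPS were lower in the knockout, with 0 higher. All 5 dendritic cell markers were well above background in every group too, so the flag does not tell these cell types apart. Their summed linear level was 109396 to 125386 in wildtype basal and 202982 to 221993 in wildtype LPS samples. That of the macrophage markers was 221378 to 223794 and 117623 to 132688. Such a sum is led by its brightest genes, and the markers of each list moved both ways. By limma 2 dendritic cell markers were higher and 2 lower with LPS in wildtype cells, and 2 macrophage markers were higher and 4 lower. Ccr7 read 13.74 and 13.70 at rest and 17.17 and 17.07 with LPS. Itgax went from 16.41 and 16.58 to 15.93 and 15.80, and Csf1r from 16.92 and 16.93 to 15.06 and 14.82. The targeted gene, Cdk5r1, had log2 ratios of knockout over wildtype from -0.59 to -0.37 at rest and from -2.55 to -2.0 under LPS over its 2 probes. It is unknown here if the deletion covers these probes. Of the 7 neutrophil markers on the array, 5 were lower in the knockout in each condition by limma with Benjamini-Hochberg adjustment and 0 were higher. Their summed linear level was 106559 to 169505 in wildtype and 48805 to 79038 in knockout basal samples, and 269189 to 294158 against 91855 to 96073 under LPS. Of the 4 eosinophil markers 2 were lower in the knockout in each condition, and of the 5 measured mast cell and basophil markers 2 were higher. In RNA from a mixed culture, fewer cells of a type and less RNA per cell cannot be told apart, and the part of these markers in the results below was not tested.

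Promoters are shown for the members whose levels moved most between conditions, to set their sequence beside their response. RefSeq (GRCm38.p6) gave 14 promoter windows for 7 of the 8 genes. Each was searched from 250 bases before the start to 50 bases after it, and the stretches printed are the 250 bases before. Capitals mark TGACG on either strand, the short form of the cyclic AMP response element that CREB binds, so it reads CGTCA where it lies on the other strand. The printed stretches are Vipr1 at chr9:121642466-121642715 (+), the first Gpr146 start at chr5:139377447-139377696 (+), the first Pde4b start at chr4:102421305-102421554 (+) and Ptger4 at chr15:5244188-5244437 (-).
Vipr1: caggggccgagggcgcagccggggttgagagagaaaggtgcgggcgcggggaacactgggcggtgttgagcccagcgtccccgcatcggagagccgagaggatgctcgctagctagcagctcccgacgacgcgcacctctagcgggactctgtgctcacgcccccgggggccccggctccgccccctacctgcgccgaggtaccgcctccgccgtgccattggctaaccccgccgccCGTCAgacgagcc
Gpr146: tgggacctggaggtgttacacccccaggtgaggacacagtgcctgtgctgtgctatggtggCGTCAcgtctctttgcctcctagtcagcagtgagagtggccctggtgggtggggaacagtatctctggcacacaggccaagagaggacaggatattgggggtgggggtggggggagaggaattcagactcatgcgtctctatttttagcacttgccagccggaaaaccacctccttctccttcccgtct
Pde4b: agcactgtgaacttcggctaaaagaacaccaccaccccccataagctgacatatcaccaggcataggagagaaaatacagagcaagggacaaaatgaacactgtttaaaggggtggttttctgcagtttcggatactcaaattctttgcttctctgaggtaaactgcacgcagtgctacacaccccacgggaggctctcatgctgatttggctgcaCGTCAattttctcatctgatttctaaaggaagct
Ptger4: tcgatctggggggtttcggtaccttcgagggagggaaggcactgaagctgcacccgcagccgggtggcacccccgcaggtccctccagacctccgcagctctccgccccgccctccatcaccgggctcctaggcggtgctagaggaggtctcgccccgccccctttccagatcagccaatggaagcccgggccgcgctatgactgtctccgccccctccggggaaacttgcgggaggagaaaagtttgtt
The short element lay at positions -13 to -9 from the Vipr1 start, -189 to -185 from the first Gpr146 start and -34 to -30 from the first Pde4b start. The second Gpr146 start and the first Adcy7 start each held it too, which made 5 of the 14 windows and 4 of the 7 genes. Gpr146 had 3 starts, Pde4b 4 and Adcy7 3, and their other starts did not hold it. A gene with more windows has more chances to hold it, so only the windows are set beside the share that follows. Of all 32851 promoter windows, searched over the same span, 20.8% hold the same letters. The short element thus stood before at least 1 start of genes that were lower with LPS (Vipr1, Gpr146, Adcy7). It also stood before 1 of the 4 starts of Pde4b, which was higher. The full element TGACGTCA, which contains the short one, 1 fixed spelling of the NF-kappaB site, the PU.1 core GAGGAAGT, 1 fixed spelling of the interferon response core and the TATA box TATAAA were in 0 of the 14 windows on either strand. These letters occur in 1.79%, 0.155%, 3.20%, 3.44% and 13.6% of all windows, and other spellings of these sites were not searched. Which start the macrophages used was not measured.

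**Figure D1:**
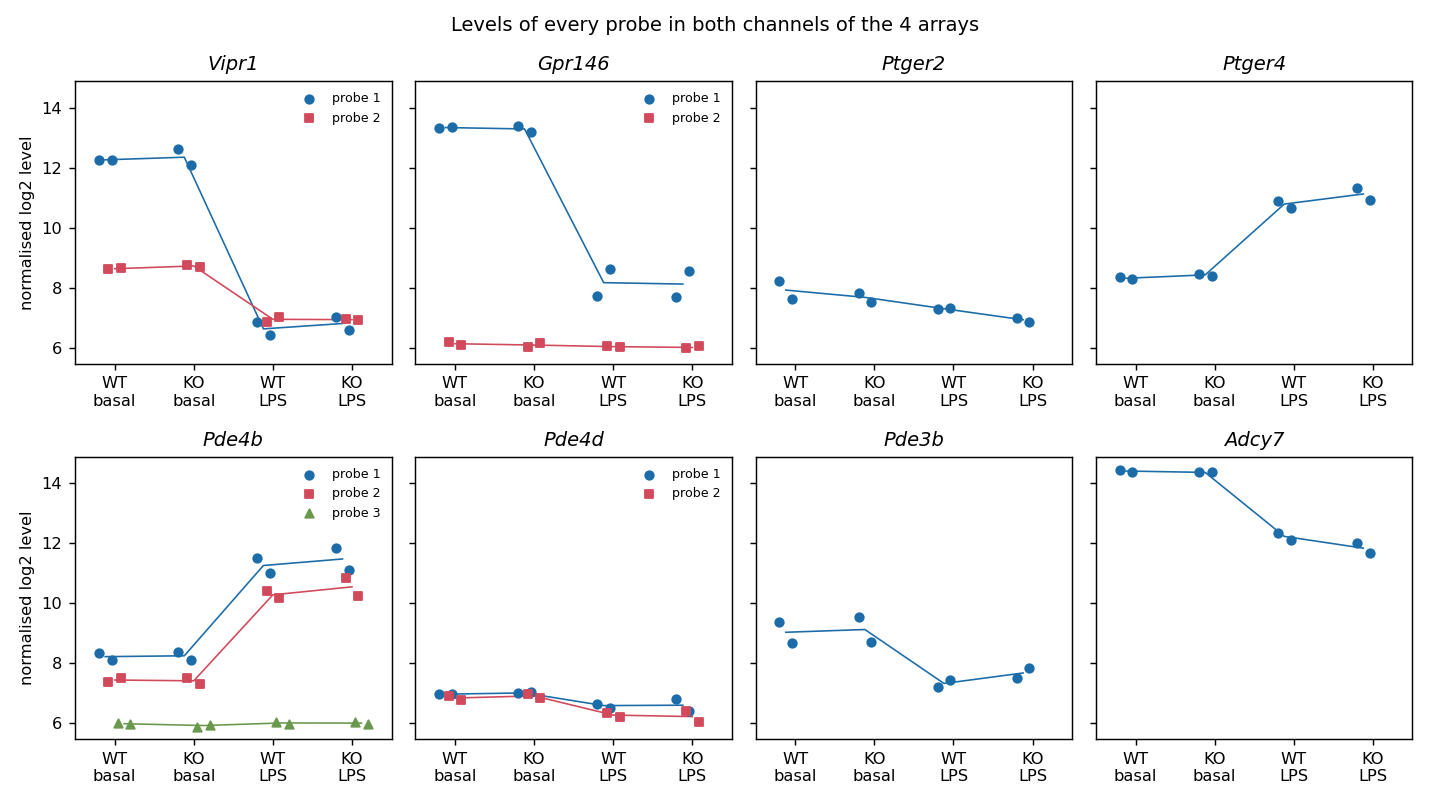
Normalised log2 level of each of the 13 probes in wildtype (WT) and knockout (KO) cells, basal and LPS, with 1 point per array channel and lines through the means of 2 arrays. Vipr1, Gpr146 and Adcy7 are lower and Ptger4 and Pde4b higher with LPS in both genotypes, while probe 2 of Gpr146 and probe 3 of Pde4b stay near background.

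Vipr1 was the gene with the lowest log2 change under LPS in wildtype cells among the 23638 genes and accessions measured, by its brighter probe, and 1 gene was lower in knockout cells. This first probe read normalised log2 levels of 12.26 and 12.26 in wildtype basal cells and 6.84 and 6.41 with LPS. In knockout cells it read 12.62 and 12.08 at rest and 7.01 and 6.59 with LPS. The basal and LPS samples of each genotype were thus far apart, and the wildtype basal pair was nearly identical. The change was -5.64 ± 0.17 (log2, SE of the limma fit, n = 2 arrays per condition) in wildtype and -5.55 ± 0.24 in knockout cells.

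The second Vipr1 probe, assigned to the same transcript, gave a much smaller change. Its levels were 8.61 and 8.65 at rest and 6.87 and 7.02 with LPS in wildtype cells, and 8.75 and 8.70 against 6.95 and 6.91 in knockout cells. The change was -1.69 ± 0.10 in wildtype and -1.79 ± 0.098 in knockout cells. Both probes therefore pointed down in both genotypes but differed in size.

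Spot intensities show where the probes parted. In Cy3, which carried wildtype RNA, probe 1 read 4122.5 and 4684 at rest and 63.0 and 47.0 with LPS. Probe 2 read 346 and 402.5 at rest and 66.0 and 79.0 with LPS. Local background was 23.0 to 29.0 at these spots. Both probes were still flagged well above background by the Feature Extraction software in both channels of every LPS array. Close to background the offset of 50 added in the background correction compresses a fold change. With the processed signals of that software the wildtype change was -7.42 by probe 1 and -2.45 by probe 2. In knockout cells it was -6.74 and -2.54. With an offset of 10 the wildtype values were -6.43 and -2.10. The gap between the probes remained under each of these settings.

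**Figure D2:**
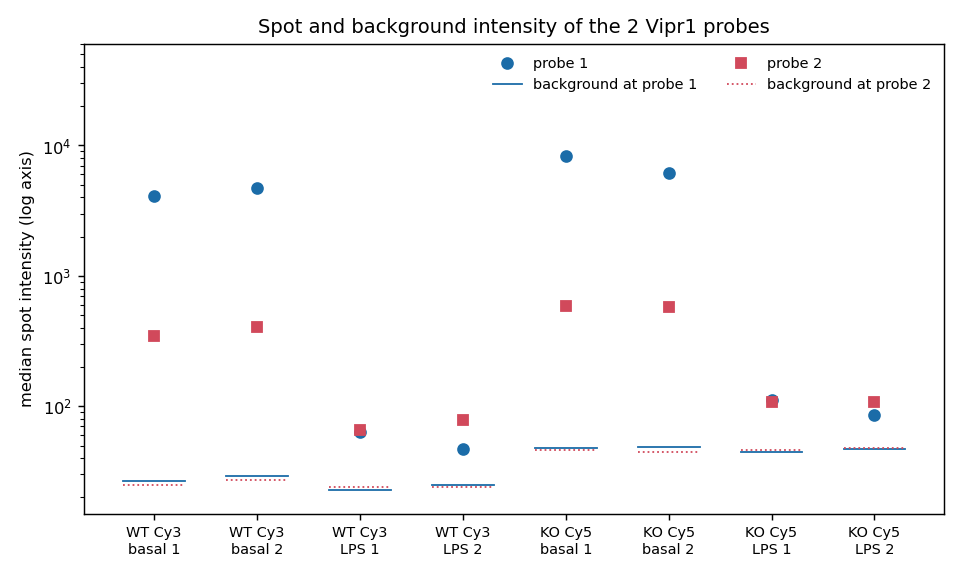
Median spot intensity (log axis) of both Vipr1 probes, with the local background of each as a short line, in the Cy3 wildtype and Cy5 knockout channels of the 4 arrays. Probe 1 is the brighter spot at rest, 4122.5 and 4684 in Cy3, and both probes come near background with LPS.

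Gpr146 behaved much like the first Vipr1 probe. Its first probe read 13.33 and 13.35 in wildtype basal cells and 7.70 and 8.63 with LPS, and 13.39 and 13.20 against 7.68 and 8.56 in knockout cells. The LPS replicates lay apart in both channels in the same way, with replicate 2 the higher, yet far below all basal values. The change was -5.17 ± 0.31 in wildtype and -5.17 ± 0.31 in knockout cells, and 2 genes had a lower value in each genotype. The second probe, assigned to a non-coding RefSeq transcript of the gene, read 5.97 to 6.17, was never well above background and was not tested.

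The prostaglandin E2 receptor genes moved in opposite directions. Ptger4 read 8.35 and 8.27 in wildtype basal cells and 10.90 and 10.67 with LPS, and 8.45 and 8.40 against 11.33 and 10.92 in knockout cells. The change was 2.47 ± 0.12, or 5.56-fold, in wildtype and 2.70 ± 0.17, or 6.49-fold, in knockout cells. Ptger2 read 8.20 and 7.63 at rest and 7.27 and 7.32 with LPS in wildtype cells, and 7.83 and 7.52 against 6.99 and 6.87 in knockout cells. Its change of -0.62 ± 0.21 in wildtype and -0.75 ± 0.14 in knockout cells was small, and in wildtype cells its basal replicates differed by almost as much as the conditions.

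Adcy7, an adenylyl cyclase prominent in blood cells, was also lower with LPS. Its levels were 14.46 and 14.36 at rest and 12.35 and 12.12 with LPS in wildtype cells, and 14.37 and 14.36 against 12.001 and 11.68 in knockout cells. The change was -2.18 ± 0.12, a 4.53-fold lower level, in wildtype and -2.53 ± 0.14, or 5.76-fold lower, in knockout cells. With LPS both knockout values lay below both wildtype values.

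Among the phosphodiesterase genes, Pde4b was higher and Pde3b lower with LPS. Pde4b encodes a cyclic AMP-specific enzyme of the PDE4 family. Its first probe read 8.34 and 8.10 at rest and 11.52 and 11.01 with LPS in wildtype cells, and 8.38 and 8.12 against 11.85 and 11.12 in knockout cells. The second probe read 7.36 and 7.52 against 10.40 and 10.16 in wildtype cells, and 7.52 and 7.32 against 10.85 and 10.25 in knockout cells. The probes gave like changes, 3.04 ± 0.20 and 2.84 ± 0.13 in wildtype and 3.23 ± 0.27 and 3.13 ± 0.23 in knockout cells. The third probe of this transcript read 5.89 to 6.05, was never well above background and was not tested.

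Pde3b, whose enzyme is inhibited by cyclic GMP, read 9.38 and 8.69 in wildtype basal cells and 7.20 and 7.46 with LPS, and 9.53 and 8.72 against 7.50 and 7.85 in knockout cells. The first basal array was the higher in both channels, and no basal value overlapped an LPS value. The change was -1.71 ± 0.25 in wildtype and -1.45 ± 0.30 in knockout cells.

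Pde4d, a PDE4 family gene like Pde4b, stayed near the detection limit. Its first probe read 6.96 and 6.98 against 6.66 and 6.53 with LPS in wildtype cells, and 7.00 and 7.03 against 6.80 and 6.41 in knockout cells. Its second read 6.90 and 6.79 against 6.34 and 6.21 in wildtype, and 6.97 and 6.85 against 6.40 and 6.05 in knockout cells. On the second LPS array the first probe was not well above background in the knockout channel, and the second probe in neither channel. The changes were -0.41 ± 0.16 and -0.69 ± 0.15 in knockout cells. Those in wildtype cells, -0.38 ± 0.098 and -0.57 ± 0.10, depended on the scaling. With each channel scaled to its 75th percentile they were 0.0042 and -0.13, while the median of all probes moved from -0.013 to 0.36.

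Of the 11 probes tested, 8 were lower and 3 higher with LPS in each genotype, and basal and LPS levels did not overlap for 11 of 11. Among all probes measured on every array 75.5% did not overlap in wildtype and 76.3% in knockout cells, and the members were chosen by this contrast, so nothing is read from that count. By the brightest probe of each gene the median change of the 8 genes was -1.16 in wildtype and -1.10 in knockout cells. Over all genes it was -0.0059 and -0.014. With 75th percentile scaling the first Pde4d probe was no longer lower in wildtype cells, so the 8 and 3 depend on the scaling. That scaling shifted changes upward in knockout cells too, and the small Ptger2 and Pde4d changes carry this limit.

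**Figure D3:**
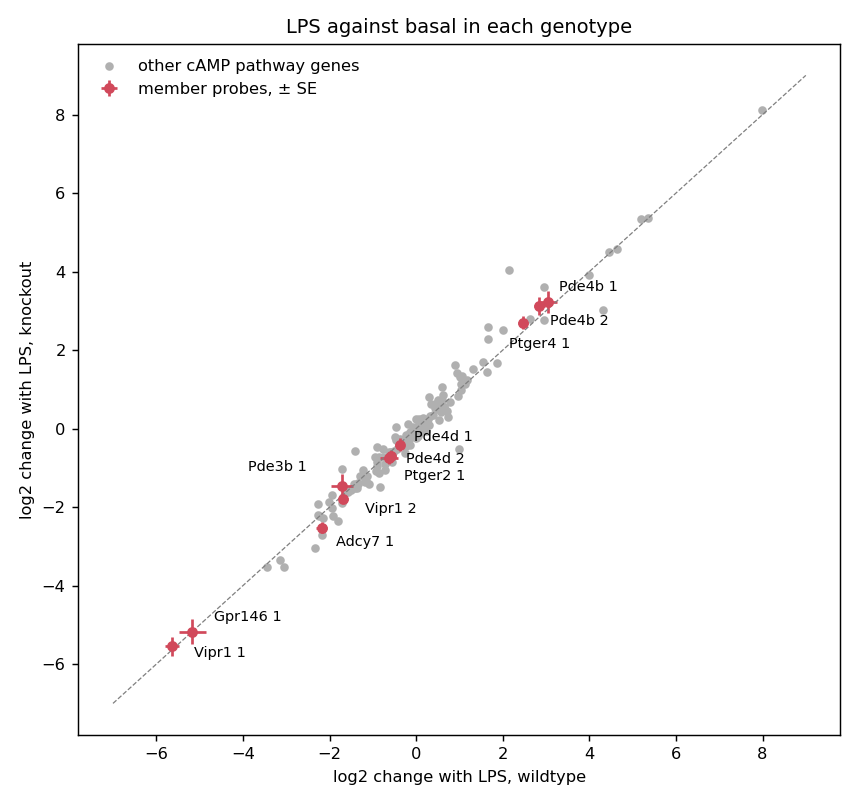
Log2 change with LPS in wildtype (x axis) and knockout cells (y axis) for the 11 tested member probes, with SE bars, and for 141 other measured genes of the cyclic AMP pathway in grey; the dashed line marks equal change. The first probes of Vipr1 and Gpr146 lie at the lower left, below the grey points, and Pde4b and Ptger4 at the upper right.

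At rest the knockout left no member past the threshold. The first Vipr1 probe gave log2 ratios of knockout over wildtype of 0.35 and -0.18 on the basal arrays, so its replicates disagreed in sign. Ptger2 had the largest mean, -0.24 ± 0.090, with -0.38 and -0.11 on the arrays (limma adjusted p = 0.21 over all 28719 probes, unadjusted p = 0.033, 95% interval -0.46 to -0.03). Of the 11 probes 0 passed by limma at an adjusted p of 0.05, against 4.57% of all probes. At an unadjusted p under 0.05 there was 1. The share of all probes at the unadjusted threshold is not given here, so nothing is read from the 1. For the other members the means lay between -0.05 and 0.11. The intervals show the sizes that these arrays leave possible, such as -0.20 to 0.38 for the first probe of Vipr1 and -0.21 to 0.12 for Adcy7.

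Under LPS 4 of the 8 genes passed, Pde3b and Ptger4 higher and Adcy7 and Ptger2 lower in the knockout, each by less than 1.32-fold. By the brightest probe of each gene 12.2% of all genes passed in this comparison, 7.08% higher and 5.1% lower. The 8 genes were chosen with earlier results of these data known, so nothing is read from an excess over all genes. Their p-values carry the same limit. The median log2 ratio of the 8 genes was 0.10, beside -0.00066 over all genes.

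Adcy7 had log2 ratios of -0.35 and -0.44 on the LPS arrays, against -0.09 and 0.00 at rest. The mean under LPS was -0.39 ± 0.071 (limma adjusted p = 0.018, 95% interval -0.56 to -0.22). The normalised Adcy7 ratio was thus below 0 on 2 of 2 LPS arrays.

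Ptger2 had ratios of -0.28 and -0.46 and a mean of -0.37 ± 0.090 (limma adjusted p = 0.047, interval -0.59 to -0.15). Its normalised ratio was below 0 on all 4 arrays, where genotype and a dye effect of the probe cannot be told apart. Ptger4, the other prostaglandin E2 receptor gene, had ratios of 0.43 and 0.25 and a mean of 0.34 ± 0.075 (limma adjusted p = 0.036, interval 0.16 to 0.52). Its ratios were above 0 on the 4 arrays, 0.10 and 0.13 at rest.

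On the LPS arrays the Pde3b spots read 85.5 and 104.5 in Cy3 and 156 and 212 in Cy5. Local background was 23.0 to 25.5 and 39.5 to 46.0, so the limit from the offset holds here too. Pde3b had ratios of 0.30 and 0.39 and a mean of 0.35 ± 0.072 (limma adjusted p = 0.028, interval 0.18 to 0.52). Pde4b pointed the same way, with 0.33 and 0.11 by its first probe (mean 0.22 ± 0.079, limma adjusted p = 0.13) and 0.45 and 0.08 by its second (0.27 ± 0.12, adjusted p = 0.20), but did not pass. For Vipr1 and Gpr146, the lowest with LPS, no genotype difference passed. Vipr1 gave 0.17 and 0.18 by its first probe (mean 0.18 ± 0.12, limma adjusted p = 0.39) and 0.08 and -0.11 by its second. Both Vipr1 probes were close to background with LPS, where the offset compresses a ratio. These ratios therefore say little about a genotype difference in Vipr1. Gpr146 gave -0.03 and -0.07 (mean -0.05 ± 0.078, limma adjusted p = 0.74, interval -0.23 to 0.14). The Pde4d probes had means of 0.01 and -0.05 (limma adjusted p = 0.94 and 0.72).

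**Figure D4:**
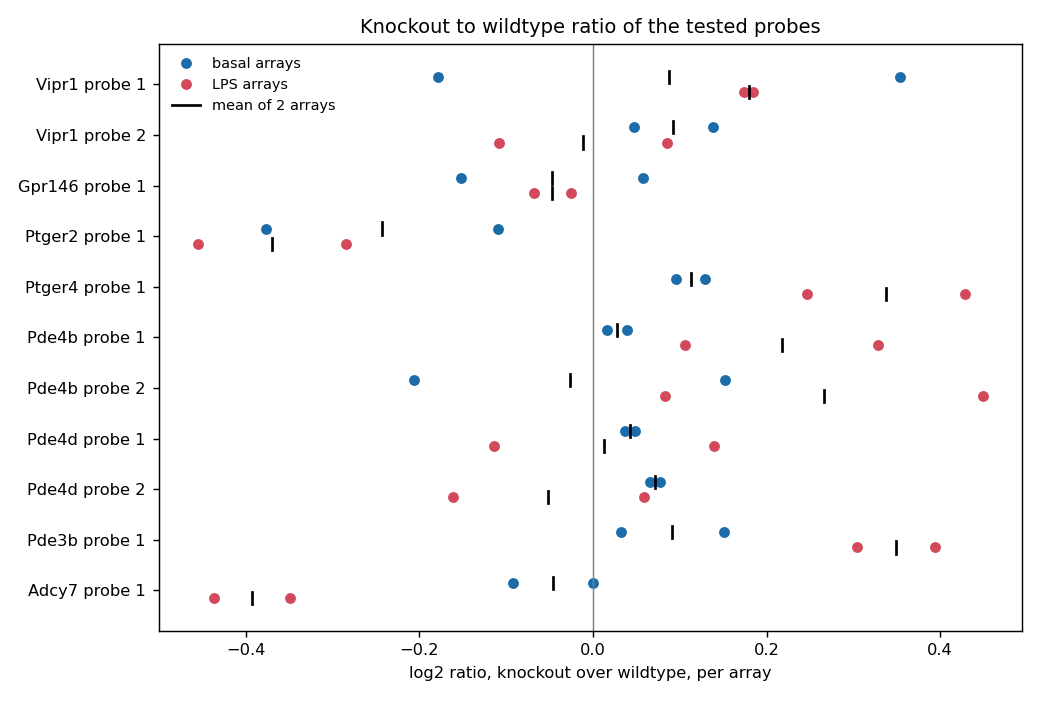
Log2 ratio of knockout over wildtype on each array for the 11 tested probes, basal arrays in blue and LPS arrays in red, with a black tick at the mean of 2 arrays. Under LPS Adcy7, Ptger2 and Gpr146 lie below 0 on both arrays, Gpr146 at only -0.03 and -0.07. Ptger4, Pde4b, Pde3b and the first Vipr1 probe lie above 0 on both. The basal ratios stay between -0.38 and 0.35.

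These 4 calls were near the threshold, and each kept its sign under every setting tried. The 4 calls did not hold when either LPS array was left out, a fit that leaves 1 LPS array. With the processed signals of the Feature Extraction software 0 of the 4 passed (limma adjusted p 0.055 to 0.11). Ptger4 did not pass with an offset of 10, nor Adcy7 with arrays centred on the median, and with the authors' value table only Pde3b passed. Over all settings the limma adjusted p ran from 0.011 to 0.17 for Adcy7, 0.016 to 0.20 for Pde3b, 0.0082 to 0.28 for Ptger4 and 0.015 to 0.29 for Ptger2. The Ptger2 mean was -0.80 with processed signals, and that of Adcy7 was -0.19 when arrays were centred on the median without loess.

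Whether the knockout acted differently at rest and under LPS was tested as the difference of the ratios. By limma 0 of the 11 probes passed the adjusted threshold, against 0.407% of all probes. At an unadjusted p under 0.05 there were 2. The share of all probes at the unadjusted threshold is not given here, so nothing is read from the 2. The difference was -0.35 ± 0.10 for Adcy7 (limma adjusted p = 0.29, unadjusted p = 0.011, interval -0.59 to -0.11) and 0.26 ± 0.10 for Pde3b (adjusted p = 0.46, unadjusted p = 0.042, interval 0.01 to 0.50). For Ptger4 it was 0.22 ± 0.11 (limma adjusted p = 0.55) and for Ptger2 -0.13 ± 0.13 (0.81). The probes of Pde4b gave 0.19 and 0.29, those of Vipr1 0.09 and -0.10, those of Pde4d -0.03 and -0.12, and Gpr146 gave 0.00 (limma adjusted p from 0.64 to 1.0). The genotype differences that passed under LPS are therefore not shown to be particular to LPS.

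Around the members, 160 further genes of the pathway were followed as 9 lists, and 141 of them were measured. The lists were chosen with earlier results of these data known. Their shares of called genes, with LPS and between genotypes, are therefore given as description, and nothing is read from an excess over all genes. The p-values of the named genes carry the same limit. With LPS 35 rose and 49 fell in wildtype cells, 59.6% against 41.7% of all genes, and 38 rose and 47 fell in knockout cells, 60.3% against 42% of all genes (limma adjusted p under 0.05, brightest probe). With the scaling to the 75th percentile 63 rose and 47 fell in wildtype and 60 rose and 43 fell in knockout cells, so the balance of directions depends on the scaling. The genes named next kept their sign in both genotypes under that scaling.

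Of the 22 measured Gs-coupled receptor genes 4 rose and 3 fell in wildtype cells. Adora2a, which encodes an adenosine receptor, rose from 7.81 and 8.16 to 13.23 and 13.12, a change of 5.20 ± 0.15 (limma adjusted p = 0.00028). In knockout cells it rose by 5.34 ± 0.10. Ptgir, the prostacyclin receptor gene, fell by 1.91 ± 0.21 on the log2 scale (limma adjusted p = 0.0032). Among the 21 genes of receptors coupled to Gi, which inhibits cyclases, 7 rose and 8 fell, with the formyl peptide receptor genes Fpr1 and Fpr2 up by 4.45 ± 0.13 and 4.63 ± 0.19.

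Among the 27 genes of G proteins, RGS proteins, receptor kinases and arrestins 8 rose and 13 fell in wildtype cells. Rgs1, which shortens G protein signals, rose by 3.99 ± 0.099, and the arrestin gene Arrb1, which ends receptor coupling, fell by 3.45 on the log2 scale. Of the 5 other measured adenylyl cyclase genes Adcy6 rose by 2.01 ± 0.28 and Adcy9 fell by 2.27, and 3 did not pass. Of the 10 other cyclic AMP phosphodiesterase genes 2 rose and 3 fell, among them Pde2a (-1.80 ± 0.29) and Pde4a (-1.16 ± 0.10, and -0.97 by its other probe).

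Downstream, 3 of the 20 genes of protein kinase A, Epac and anchoring proteins rose and 10 fell. The anchoring protein genes Akap12 and Pakap rose by 2.95 ± 0.19 and 5.36 ± 0.16, and the other Pakap probes gave 3.96 and -0.01. Of the 11 genes of CREB factors and coactivators 4 rose and 3 fell, with the coactivator genes Crtc1 and Crtc3 at -1.43 ± 0.32 and -1.72 ± 0.14. Without either basal array the wildtype calls of Crtc1 (limma adjusted p = 0.093 and 0.12) and Pde2a (0.059 and 0.062) were lost. Of the 15 genes that cyclic AMP is known to induce 6 rose and 3 fell. Ptgs2, the inducible cyclooxygenase gene on the route to prostaglandin E2, rose by 7.98 ± 0.089 and Nr4a3 by 2.96 ± 0.27. Of the 11 genes of ligand synthesis and export 1 rose, Ptgs2 again, and 5 fell, with the constitutive cyclooxygenase gene Ptgs1 at -2.34 ± 0.28.

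Between genotypes at rest 2 of these 141 genes were higher and 6 lower in the knockout, 5.67% against 4.89% of all genes. Pde4c, a PDE4 family gene, was higher by 0.52 ± 0.068 (limma adjusted p = 0.0080), and Fpr1 lower at -1.15 ± 0.13 (adjusted p = 0.0043). The Pde4c probe was very bright, at 16.36 and 16.24 in wildtype basal cells, where the macrophage marker Csf1r read 16.92 and 16.93. Whether this probe reads only Pde4c was not tested. Sik1, a kinase that CREB induces, was at -1.002 ± 0.15 (adjusted p = 0.014) and Nt5e, which makes adenosine, at -0.89 ± 0.088 (adjusted p = 0.0029). At rest 0 of the 141 passed with processed signals, and 0 with the ratios the authors deposited, while with median centring 19 were higher and 6 lower.

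Under LPS 13 were higher and 16 lower in the knockout, 20.6% against 12.2% of all genes. The lists were chosen with earlier results of these data known, so nothing is read from this excess. Markers of neutrophils, eosinophils and macrophages were lower in the same knockout samples (5 of 7, 2 of 4 and 3 of 8), and their part in these counts was not tested. Il10, an anti-inflammatory cytokine gene that cyclic AMP is known to induce, had ratios of 1.90 and 1.91 and a mean of 1.91 ± 0.067 (limma adjusted p = 3.5e-05). Adora2b, another adenosine receptor gene of the Gs class, had ratios of -1.79 and -2.07 and a mean of -1.93 ± 0.091 (adjusted p = 0.00010), with -1.14 by its other probe. Both stayed past the threshold under every setting in which they were fitted. Mc3r, a melanocortin receptor gene, was at 1.47 ± 0.27, Dusp1 at 0.95 ± 0.17, the leukotriene B4 receptor gene Ltb4r1 at -1.10 ± 0.082 and Ptgs1 at -0.63 ± 0.12. Without the first LPS array 8 of the 141 passed and without the second 4, and with processed signals 12. Mc3r, Dusp1 and Ptgs1 were among those that did not pass without the second LPS array or with processed signals (limma adjusted p from 0.078 to 0.17). With median centring 34 were higher and 13 lower, so the balance of directions depends on the normalisation here too.

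The genes whose 8 centred levels were closest to those of each member were found by Euclidean distance, over the 4 arrays and 2 channels, which share RNA and arrays. For Vipr1 they were Rab3il1 (0.62), Amz1 (1.103) and Gpr146 (1.49), the last itself a member. For Gpr146 they were Inpp5d (1.40), Rab3il1 (1.44) and Ier5l (1.44). Levels of Vipr1 and Gpr146 differed mainly between conditions, and both were chosen with that response known, so their nearness is no separate finding. Pde4b was closest to Rel (0.38), which encodes an NF-kappaB subunit, Peli1 (0.40) and Gm18852 (0.42), and Adcy7 to Cysltr1 (0.27), a leukotriene receptor gene, Xylb (0.30) and Ints6l (0.32). Ptger4 was closest to a transcript known by its Ensembl accession (0.11), Tlk2 (0.12) and Sowahc (0.27), and Pde3b to Cipc (0.44), Tubb2a (0.46) and Ago4 (0.47). Ptger2 was closest to Rnase4 (0.30) and Pde4d to Ano8 (0.091).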

How the data were processed

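RNA from 4 2-colour Agilent arrays was measured as spot intensity; the deposited files give, per the file headers, median foreground and background intensity, processed signals and flags from Agilent Feature Extraction (9.3.2.1 per the submitters' processing notes, 11.5.1.1 per the file headers). The authors deposited log2 ratios too (knockout over wildtype), which match the processed signals to within 0.001 after a constant per array. The median foreground intensities were used where the design had assumed means.

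Here, limma 3.58.1 (R 4.3.3) applied normexp with an offset of 50, then loess to each array's ratios and Aquantile to the levels, with control and outlier spots at weight 0. A probe was kept if a channel was well above background on at least 2 of the 4 arrays, which left 28719 probes. Symbols came from RefSeq transcripts of GRCm38.p6 for 27508 of 39429 probes; the array's build is mm9, so probe positions are not used here. The brightest kept probe stood for a gene in the lists and in gene counts.

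Ratios were fitted over the 4 arrays with a mean per condition, and LPS against basal per channel; all tests are two-sided, with eBayes and Benjamini-Hochberg over all kept probes. The number of arrays limits the precision. The fits were tested on simulated data. Named list genes are at most 2 per list and comparison, those with the largest change past the threshold that were well above background and changed the same way on both arrays. Nearest patterns are the 3 smallest distances, of which the first is given for Ptger2 and Pde4d. The members and lists were chosen with earlier results of these data known. The labels do not say whether replicate numbers pair the samples, and deviations of equal numbers correlated at -0.17 for ratios. With 2 replicates per condition this leaves pairing undecided. Alternatives were processed signals, an offset of 10, median centring, 75th percentile scaling, the authors' value table, other filters, an intensity trend, a replicate block and leaving out each array.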

Additional observations from a re-analysis of the deposited data

Results flagged for a closer look

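Knockout effects of Adora2b and Il10 differed between the basal and the LPS condition in the test of the difference itself. Both come from the lists, which were chosen with earlier results of these data known. Adora2b, an adenosine receptor gene, had log2 ratios of -0.51 and -0.35 at rest and -1.79 and -2.07 under LPS, a difference of -1.50 ± 0.13 (limma adjusted p = 0.0091, and from 0.0021 to 0.12 over the settings tried). It did not pass without either LPS array, with processed signals, with the authors' value table or with an intensity trend. Il10 had ratios of 0.00 and 0.03 at rest and 1.90 and 1.91 under LPS, a difference of 1.90 ± 0.094 (limma adjusted p = 0.0012, and from 0.00020 to 0.084 over the settings tried). It did not pass with processed signals, with the authors' value table or without the second LPS array. Its probe was not well above background on every basal array, so its basal ratio carries little information.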

How the results depend on the processing

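All counts are of probes past a limma adjusted p of 0.05, members as genes. For knockout against wildtype at rest 1312 probes passed (907 higher, 405 lower), 5094 with median centring (4345 and 749) and 869 to 992 when 1 array was left out. Under LPS 3312 passed (1930 and 1382), 6420 with median centring (5400 and 1020), 2122 with processed signals, 2070 with the authors' value table and 493 to 3945 with 1 array left out. Member genes past the threshold under LPS numbered 4, with 0 by processed signals, 1 by the authors' value table and 0 to 4 with 1 array left out. The difference between conditions had 117 probes, 13 with processed signals, 64 with an offset of 10, 50 with probes well above background on all 4 arrays, 275 with median centring, 12 with the authors' value table and 7 to 331 with 1 array left out. LPS against basal had 11994 probes in wildtype (5263 and 6731), 18774 with 75th percentile scaling (13738 and 5036) and 6153 to 10852 with 1 array left out; in knockout cells it had 12078 (5509 and 6569), 17946 (12956 and 4990) and 4925 to 11969. The labels do not say whether samples of equal replicate number belong together. With that number as a replicate block 1 member gene passed under LPS (Adcy7, limma adjusted p = 0.044). With this block 2343 probes passed under LPS and 57 for the difference. A crossed replicate block, added after seeing the data, gave 1979 probes at rest and 319 for the difference. Among single member values Pde4d probe 1 in wildtype LPS cells turned to 0.0042 with 75th percentile scaling, Ptger4 was lost with an offset of 10 (limma adjusted p = 0.075), and with median centring Pde4b probe 1 passed (0.39, adjusted p = 0.030) while Adcy7 did not (adjusted p = 0.17). The causes were not tested. With 4 arrays and no dye swap, differences of the size seen between genotypes for the member genes are near the limit of what can be called.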
